A study of Mus musculus with 12 samples.

Results

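Elastin, the enzymes that crosslink it and the microfibril proteins that carry it were described here through 10 genes: Eln, Lox, Loxl1, Mfap4, Mfap5, Emilin1, Ltbp1, Ltbp2, Ltbp3 and Ltbp4. Every array probe that the platform annotation gives to one of these symbols was taken, which gave 23 of the 45281 probes, for 10 of the 19057 genes that the annotation names. The study hybridised RNA of mouse carotid arteries to 12 one-colour Illumina arrays, 3 in each of 4 groups. Ligated left carotid arteries of fibulin-5 knockout mice are called KO LCA and those of wild-type mice WT LCA. Untouched right carotid arteries are called KO RCA for the knockout and WT RCA for the wild type. All 12 samples are labelled C57Bl/6J. Partial ligation disturbs flow in the left artery, and all arteries of both genotypes were taken 1 day after it. The labels name the knockout FibVKO and do not say which exons it lacks, how old the mice were, or whether each array of a group stands for a mouse of its own. P-values therefore measure the spread between these samples, which may be technical. The study asked what loss of fibulin-5 does to an artery under disturbed flow, with stiffness and remodelling in view.

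Elastic fibres give arteries their recoil. Smooth muscle cells and fibroblasts secrete tropoelastin, the soluble product of Eln, which gathers on microfibrils. Lysyl oxidases, among them Lox and Loxl1, oxidise lysines of tropoelastin, so that the chains crosslink into insoluble elastin. Fibulin-5, the protein missing in the knockout, binds tropoelastin and Loxl1 and helps to place elastin on the microfibril. Mfap4 and Mfap5 are microfibril-associated proteins, and Emilin1 lies where elastin meets the microfibril. The latent transforming growth factor beta binding proteins Ltbp1, Ltbp3 and Ltbp4 hold latent TGF-beta in the matrix. Ltbp2, the fourth of the family, does not bind latent TGF-beta. Ltbp2 and Ltbp4 also bind fibulin-5.

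Values are linear probe intensities as deposited. The level below which 95% of 1501 probes for olfactory and vomeronasal receptors lay served as each array's background level and lay between 95.7 and 126. Of the 23 probes, 3 exceeded it on all 12 arrays (the Lox probe and a pair of Ltbp4 probes), 16 on 1 to 11 arrays and 4 on none. There were 11 probes above background on 3 arrays or fewer, among them both Loxl1 probes, both Ltbp2 probes and 6 of the 7 Ltbp1 probes. Near this level fold changes are compressed. Of the 23 probes, 21 passed the filter on low values and were tested (1 Ltbp1 and 1 Ltbp2 probe did not), and all 10 genes kept at least 1. The filter is mild, since 47.1% of the receptor probes passed it too. Each gene is described by its leading probe, the one with the highest mean over the 12 arrays.

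**Figure D1:**
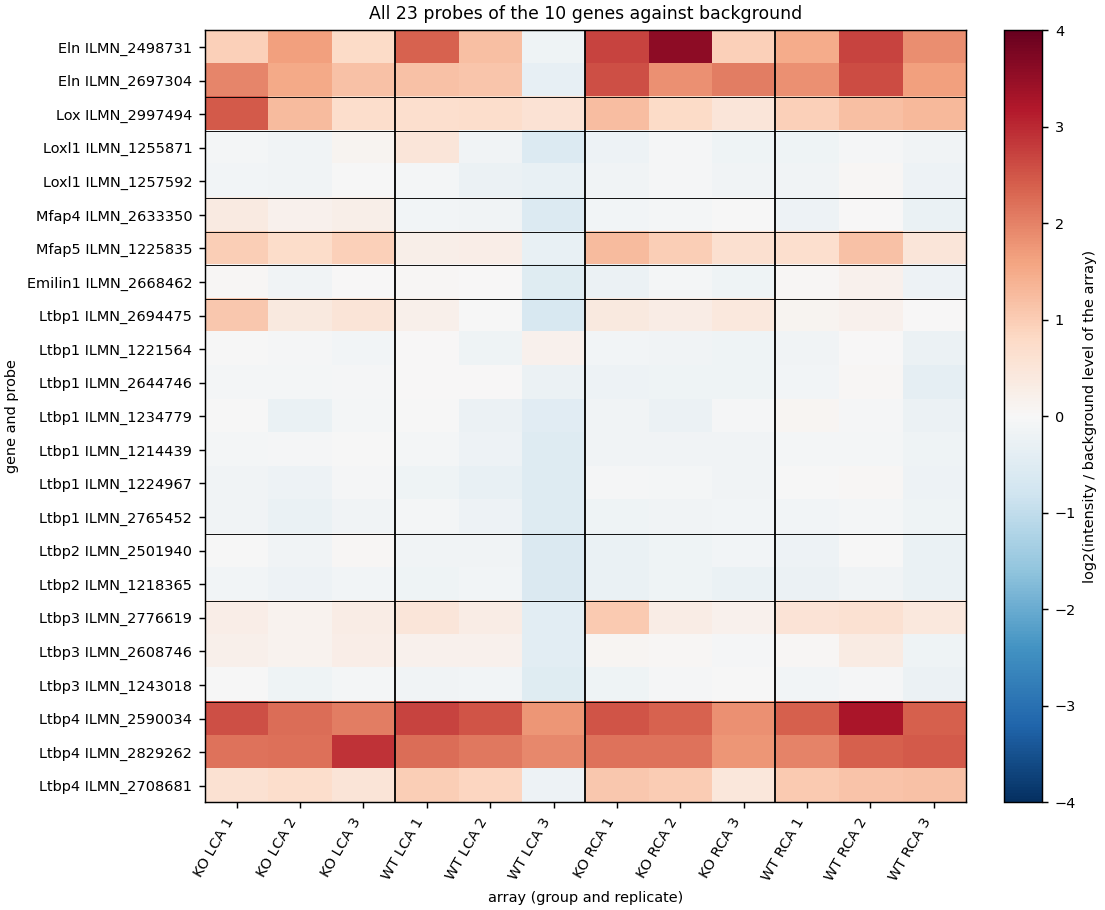
Log2 of intensity over the array's background level for all 23 probes of the 10 genes (rows) on the 12 arrays (columns, KO LCA, WT LCA, KO RCA and WT RCA with replicates 1 to 3). Red marks values above background and blue values below it, and the Eln, Lox and Ltbp4 rows are red on nearly every array, while most Ltbp1 rows stay near white.

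One array stood apart before any gene was considered. The third WT LCA array had the highest background level, 126, and 15.3% of its kept probes lay above it, against 29.8 to 58.2% on the other 11 arrays. Its median correlation with the other arrays was 0.628, against 0.725 to 0.836 elsewhere, and only 4 member probes exceeded background on it, against 9 to 16. The member counts that rest on WT LCA are given with and without it, and so are those leading-probe differences, among the member values given below, that it moved by more than 1.5 times. The single Fbln5 probe, for the deleted gene, was above background on none of the 12 arrays, with intensities of 80.6 to 97.4 over all arrays (81.7 to 88.4 in KO LCA and 86.5 to 88.0 in WT LCA), so it checks nothing about the genotype labels.

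Levels of marker genes for the cells in the vessel wall and around it were measured beside the elastic fibre genes, without a test of the lists. The summed leading-probe intensity of 10 smooth muscle genes was 1822 to 2272 in KO LCA and 1216 to 1291 in WT LCA, and 1484 to 1614 in KO RCA and 1146 to 1317 in WT RCA. On all 3 arrays of a group, 5 of these 10 genes were above background in KO LCA against 1 in WT LCA, and 2 in KO RCA against 1 in WT RCA. Among defining smooth muscle genes, Cnn1 was above background on 1 of the 12 arrays, Tagln on 5 and Myh11 on 7, while Acta2 was above it on all 12. Acta2 averaged 851 in KO LCA and 367 in WT LCA, and Smtn 327 and 121 in the same order of groups, and these 2 genes made up most of the gap between the sums. Cnn1 averaged 93.5 in KO LCA and 95.5 in WT LCA, and Lmod1 91.3 and 90.9. Leaving out the third WT LCA array, 2 of the 10 genes were above background on both other WT LCA arrays, and the sum there was 1240 to 1291. For 10 fibroblast genes the sum was 1567 to 2083 in KO LCA and 1092 to 1454 in WT LCA, and 1341 to 1648 in KO RCA and 1442 to 2117 in WT RCA. For 12 endothelial genes it was 3438 to 6064 in KO LCA, 3635 to 4295 in WT LCA, 4123 to 5236 in KO RCA and 4385 to 5362 in WT RCA, and 8 to 11 of the 12 genes were above background on all 3 arrays of a group. For 8 adipocyte genes the sum was 1116 to 1451 in KO LCA and 768 to 948 in WT LCA, and 762 to 963 in KO RCA and 807 to 986 in WT RCA, with Plin1 and Lep at background on all 12 arrays. For 5 red blood cell genes it was 1501 to 3276 in KO LCA and 1551 to 2321 in WT LCA, and 2183 to 6367 in KO RCA and 806 to 2079 in WT RCA. Over the 4 groups Myh11 averaged 92.9 to 103 and Tagln 91.7 to 110. Among endothelial genes, Pecam1 averaged 1084 to 1793 and Esam 525 to 611, but Kdr 86.9 to 95.4. Cnn1, Tagln and Myh11 thus gave little smooth muscle signal, while Acta2 lay well above background. Which layers of the wall gave the RNA was not tested. In these bulk samples fewer cells of a type and less RNA per cell cannot be told apart. The part of these marker levels in the results on the elastic fibre genes was not tested.

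No probe of the 10 genes passed an adjusted p of 0.05 in any of the comparisons (limma on all 12 arrays, Benjamini-Hochberg over 25796 kept probes). The values below are therefore given as measured levels and differences.

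Elastin was above background on 11 of 12 arrays by either of its probes, varied widely between arrays, and had lower means in ligated than in untouched arteries of both genotypes, without passing the test. Eln lies at chr5:134702595-134747368 (RefSeq positions here are of GRCm38.p6, and the array's own build is not given in the sources used here) and has a pair of probes. The annotation gives the leading Eln probe, ILMN_2498731, no transcript and the second one a RefSeq transcript. The leading probe read 192, 316 and 162 in KO LCA, 509, 237 and 113 in WT LCA, 676, 1189 and 197 in KO RCA, and 281, 634 and 390.4 in WT RCA. Both genotypes overlapped on both sides, and the ligated and untouched arteries overlapped in each genotype.

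In the knockout the leading Eln probe averaged 223 ± 81.5 in KO LCA and 688 ± 496 in KO RCA (SD, n = 3 each), a log2 difference of -1.34 ± 0.70 (SE, limma adjusted p = 0.697). In the wild type it averaged 286 ± 203 in WT LCA and 435 ± 180.4 in WT RCA, a log2 difference of -0.79 ± 0.70. Between genotypes it differed by -0.16 ± 0.70 on the ligated side and by 0.40 ± 0.70 on the untouched side. These differences are smaller than, or close to, the spread between arrays of 1 group.

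The second Eln probe, ILMN_2697304, had less spread. Its intensities were 379, 289 and 216 in KO LCA, 221, 218 and 101 in WT LCA, 609, 354 and 425 in KO RCA, and 357, 593 and 332 in WT RCA. All 3 WT LCA arrays were below all 3 WT RCA arrays, and the log2 difference there was -1.28 (limma unadjusted p = 0.0055, adjusted p = 0.585). In the knockout the same contrast was -0.65 with overlapping groups. Without the third WT LCA array the wild-type difference was -0.91 for this probe and -0.24 for the leading probe. For KO LCA minus WT LCA the pair of probes gave opposite signs, 0.76 for the second and -0.16 for the leading one, and 0.39 and -0.70 without the third WT LCA array. The correlation between the Eln probes over the 12 arrays was 0.60.

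**Figure D2:**
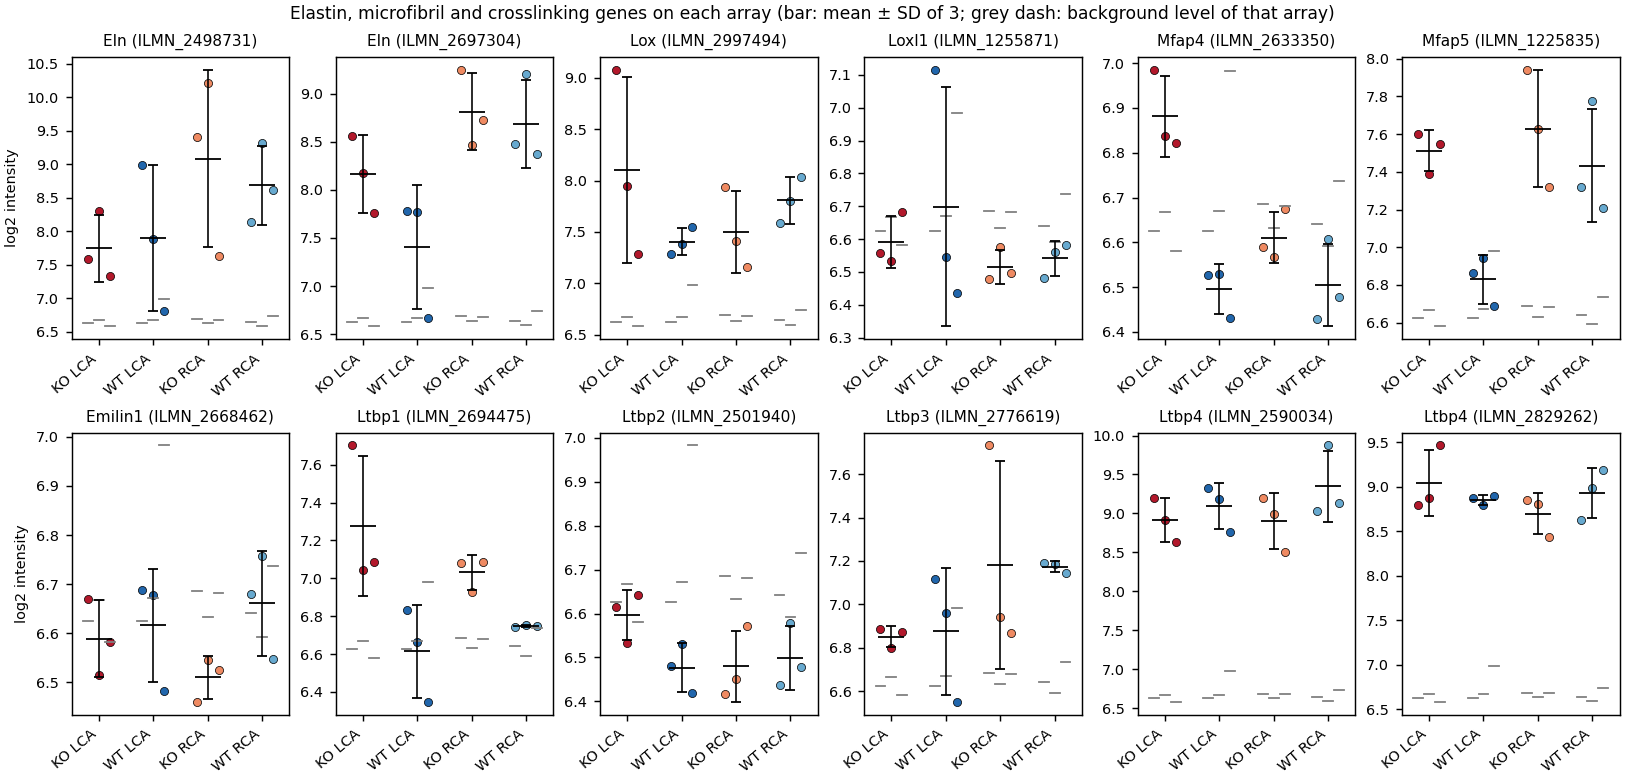
Log2 intensity of the leading probe of each of the 10 genes, with a second probe for Eln and Ltbp4, on each array of KO LCA, WT LCA, KO RCA and WT RCA. Bars show the mean ± SD of 3 arrays and grey dashes each array's background level, and the KO LCA points lie apart from the WT LCA points for Mfap4, Mfap5 and Ltbp1. For Ltbp2 the lowest KO LCA point and the highest WT LCA point are nearly level, both below background.

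Lox, the lysyl oxidase that acts on both collagen and elastin, lies at chr18:52516060-52529867. Its probe read 540.1, 246 and 156 in KO LCA, 156, 167 and 187 in WT LCA, 245, 169.8 and 142 in KO RCA, and 192, 223 and 263 in WT RCA. The KO LCA group held the highest value of the 12 and also one level with the lowest WT LCA array. Lox averaged 314 ± 201 in KO LCA and 169.9 ± 15.9 in WT LCA, a log2 difference of 0.70 ± 0.38 (adjusted p = 0.788). Leaving out single arrays moved that difference between 0.21 and 1.10, with the lowest value without the first KO LCA array and the highest without the third. On the untouched side the difference was -0.31 ± 0.38, and in the wild type all 3 WT LCA arrays were below the WT RCA arrays, by -0.40 ± 0.38.

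Loxl1, the lysyl oxidase that binds fibulin-5 and acts on tropoelastin, lies at chr9:58287723-58313212. Its leading probe was above background on 2 of 12 arrays and its other probe on 1. The leading Loxl1 probe read 139 on the first WT LCA array and between 86.6 and 103 on the other 11. The difference for KO LCA minus WT LCA was -0.11 ± 0.15, or -0.24 without the third WT LCA array, and single arrays left out moved it between -0.24 and 0.10. For WT LCA minus WT RCA it was 0.16 ± 0.15, with 1 WT LCA array and no WT RCA array above background. That difference turned to -0.051 without the first WT LCA array and was 0.29 without the third.

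Mfap4 and Mfap5, the microfibril-associated proteins, gave the 2 lowest p-values of the set for KO LCA minus WT LCA, with higher levels in KO LCA and no overlap, and neither passed the adjusted test. Mfap4 lies at chr11:61485431-61488708. Its probe read 127, 114 and 113 in KO LCA, 92.2, 92.4 and 86.3 in WT LCA, 96.3, 94.9 and 102 in KO RCA, and 86.2, 97.5 and 89.1 in WT RCA. All 3 KO LCA arrays lay above every other array in the study. Mfap4 was above background on all 3 KO LCA arrays, on none of WT LCA and KO RCA, and on 1 of WT RCA.

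Mfap4 averaged 118 ± 7.52 in KO LCA and 90.3 ± 3.48 in WT LCA, at least 1.09-fold higher in KO LCA, since the WT LCA value is only a bound. Such a bound sets the group mean against the background level, or the probe's own signal where higher, on each array of the dim group. The measured log2 difference was 0.39 ± 0.07 (limma unadjusted p = 0.000201, adjusted p = 0.110). It was 0.35 without the third WT LCA array, and 0.33 to 0.42 with any single array left out. In the knockout, KO LCA stood at least 1.16-fold above KO RCA (log2 difference 0.27 ± 0.07, adjusted p = 0.627). On the untouched side the genotypes differed by 0.11 ± 0.07. The interaction, the ligation difference in the knockout minus that in the wild type, was 0.28 ± 0.09 (unadjusted p = 0.0147, adjusted p = 0.919).

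Mfap5 lies at chr6:122513584-122529290 and was above background on 11 of 12 arrays. Its probe read 194, 168 and 187 in KO LCA, 116, 123 and 103 in WT LCA, 246, 198 and 159.5 in KO RCA, and 159.6, 219 and 148 in WT RCA. The 3 WT LCA arrays were the lowest of the 12. Mfap5 averaged 183 ± 13.6 in KO LCA and 114 ± 10.1 in WT LCA, a log2 difference of 0.68 ± 0.18 (limma unadjusted p = 0.00321, adjusted p = 0.373). WT LCA stood -0.60 ± 0.18 from WT RCA (unadjusted p = 0.00672, adjusted p = 0.615). Without the third WT LCA array these differences were 0.61 and -0.53. KO LCA and KO RCA overlapped, with -0.12 ± 0.18, and the interaction was 0.49 ± 0.25 (adjusted p = 0.919). Both comparisons share the WT LCA arrays.

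Emilin1, at chr5:30913387-30921279, read 88.0 to 108 on the 12 arrays and was above background on 6. It averaged 96.4 ± 5.25 in KO LCA and 98.3 ± 7.65 in WT LCA. It averaged 91.2 ± 2.79 in KO RCA and 101 ± 7.42 in WT RCA, with a log2 difference of -0.15 ± 0.08 (unadjusted p = 0.0760, adjusted p = 1). These groups did not overlap, but only narrowly: the highest KO RCA array read 93.40 and the lowest WT RCA array 93.47. KO RCA was at background on all 3 arrays, and WT RCA was above it on 2.

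Among the latent TGF-beta binding proteins, Ltbp4 was above background on all 12 arrays by its leading probe. Ltbp4, at chr7:27305140-27339720, has 3 probes. The leading one read 589, 483 and 399 in KO LCA, 642, 584 and 433 in WT LCA, 589.7, 510.5 and 364 in KO RCA, and 522, 937 and 564 in WT RCA. Groups overlapped in all 4 comparisons. Ltbp4 averaged 490.1 ± 95.5 in KO LCA and 553 ± 108 in WT LCA, and 488 ± 115 in KO RCA and 674 ± 229 in WT RCA. The log2 differences were -0.17 ± 0.27 on the ligated side (-0.34 without the third WT LCA array) and -0.44 ± 0.27 on the untouched side (adjusted p = 1). On the untouched side the other 2 probes gave -0.26 and -0.24, but on the ligated side they gave 0.19 and -0.07. For KO LCA minus KO RCA the leading probe gave 0.02, and the other 2 differed in sign, with 0.35 and -0.28. Probe ILMN_2708681 read 150.2, 166 and 138 in KO LCA, 194, 183 and 111 in WT LCA, 218, 202 and 139 in KO RCA, and 208, 212 and 239 in WT RCA, and its WT LCA arrays were all below its WT RCA arrays (log2 difference -0.47, unadjusted p = 0.0576, and -0.22 without the third WT LCA array). In that contrast the leading probe gave -0.25, or -0.09 without the third WT LCA array, and the remaining probe -0.08.

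Ltbp3, at chr19:5740900-5758536, has 3 probes, of which one never exceeded background. The leading probe read 118, 111 and 117 in KO LCA, 139, 125 and 93.8 in WT LCA, 213, 123 and 117 in KO RCA, and 146, 146 and 141 in WT RCA. All WT LCA arrays were below the WT RCA arrays, by a log2 difference of -0.30 ± 0.21, or -0.13 without the third WT LCA array. The next Ltbp3 probe, ILMN_2608746, gave 0.0064 there. For KO LCA minus WT LCA the leading probe gave -0.03 ± 0.21, or -0.19 without the third WT LCA array, and the next probe 0.09. Ltbp2, at chr12:84783212-84876558, read 85.5 to 99.9 and was above background on 1 of 12 arrays. Its KO LCA arrays (98.0, 92.7 and 99.9) lay above its WT LCA arrays (89.4, 92.5 and 85.5), by 0.12 ± 0.06 (unadjusted p = 0.0806), with WT LCA at background on all 3 arrays and KO LCA above it on 1.

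Ltbp1, at chr17:75005480-75392512, has 7 probes, and its leading probe and the others differed in sign or size. The leading probe, ILMN_2694475, read 208, 132 and 136 in KO LCA, 114, 101 and 81.4 in WT LCA, 135, 122 and 136 in KO RCA, and 107, 108 and 107 in WT RCA. On both sides all 3 knockout arrays lay above all 3 wild-type arrays. Ltbp1 averaged 159 ± 42.9 in KO LCA and 98.9 ± 16.3 in WT LCA, a log2 difference of 0.66 ± 0.17 (limma unadjusted p = 0.00324, adjusted p = 0.375). It averaged 131 ± 8.17 in KO RCA and 107 ± 0.314 in WT RCA, a log2 difference of 0.28 ± 0.17 (adjusted p = 1). Without the third WT LCA array the ligated-side difference was 0.53, and single arrays left out moved it between 0.45 and 0.78. The leading probe was above background on all 3 KO LCA arrays but on only 1 WT LCA array.

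The other 6 Ltbp1 probes read 83.1 to 141, each above background on at most 3 arrays. The 5 of them that were tested gave -0.20 to 0.07 for KO LCA minus WT LCA. For probe ILMN_2644746 the KO LCA arrays (93.6, 96.1 and 92.4) all lay below the WT LCA arrays (99.3, 102 and 107), against the direction of the leading probe. It was above background on 2 WT LCA arrays and on no KO LCA array. The correlation of the leading probe with the other 6 over the 12 arrays was -0.44 to 0.39. The probe at -0.44, ILMN_1221564, is annotated to the same transcript as the leading probe and gave the difference of -0.20.

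RefSeq gives Ltbp1 more than one start, and 2 promoter windows of GRCm38.p6, both on the plus strand, are printed here as a description. Each window runs 5′ to 3′ over the 250 bases before a start and the 50 after it, at chr17:75005279-75005578 (upstream start) and chr17:75178531-75178830 (downstream start). Capitals mark matches on either strand to CCAAT, to CACCC (a Kruppel-like factor site) or to CAGAC (letters that Smad proteins can bind).
Ltbp1 upstream start: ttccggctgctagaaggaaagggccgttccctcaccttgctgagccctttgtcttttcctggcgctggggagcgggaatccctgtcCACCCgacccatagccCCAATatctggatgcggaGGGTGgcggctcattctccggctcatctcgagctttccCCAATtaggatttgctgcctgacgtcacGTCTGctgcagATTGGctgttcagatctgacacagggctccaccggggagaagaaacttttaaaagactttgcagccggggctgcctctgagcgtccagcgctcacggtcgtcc
Ltbp1 downstream start: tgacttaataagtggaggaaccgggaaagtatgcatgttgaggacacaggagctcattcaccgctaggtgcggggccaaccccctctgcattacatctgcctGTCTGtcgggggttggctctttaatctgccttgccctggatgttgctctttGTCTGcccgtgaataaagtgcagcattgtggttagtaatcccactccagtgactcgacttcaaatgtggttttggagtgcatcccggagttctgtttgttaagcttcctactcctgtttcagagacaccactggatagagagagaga
The upstream window held 3 CCAAT matches, 2 CACCC matches and 1 CAGAC match, and its GC content was 58.7%. The downstream window held 2 CAGAC matches and neither of the other motifs, at 50% GC. No match to the TATA box TATAAA, the GC box GGGCGG, the AP-1 site TGACTCA or the Smad box GTCTAGAC was found in these letters, and no motif in the search lies inside another. Of 32851 RefSeq promoters, 37.4% held CCAAT, 57.5% CACCC, 49.6% CAGAC, 13.6% TATAAA, 35.7% GGGCGG, 5.20% TGACTCA and 0.213% GTCTAGAC, and their median GC content was 52.7%. These are matches of letters, and the files do not pair the probes with a start. Windows were found for 5 of the 10 genes.

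Between the ligated arteries, the members split evenly: 5 leading probes were higher and 5 lower in KO LCA than in WT LCA. The median over the 21 tested probes was 0.02, against -0.00 over all tested probes. None of the 21 passed the adjusted test, which 0.0426% of all probes did (11 of 25796). At an unadjusted p under 0.05 there were 3, Mfap4, Mfap5 and the leading Ltbp1 probe, all higher, where 6.46% of all probes passed. Without overlap between groups, 4 were higher (those 3 and Ltbp2), where 7.61% of all probes were, and 1 was lower (an Ltbp1 probe), where 5.35% were. Without the third WT LCA array the same 3 probes had an unadjusted p under 0.05, where 6.86% of all probes did. In that setting the same 4 were higher without overlap (12.7% of all probes) and 4 were lower, of Emilin1, Ltbp1, Ltbp3 and Ltbp4 (11.4%).

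**Figure D3:**
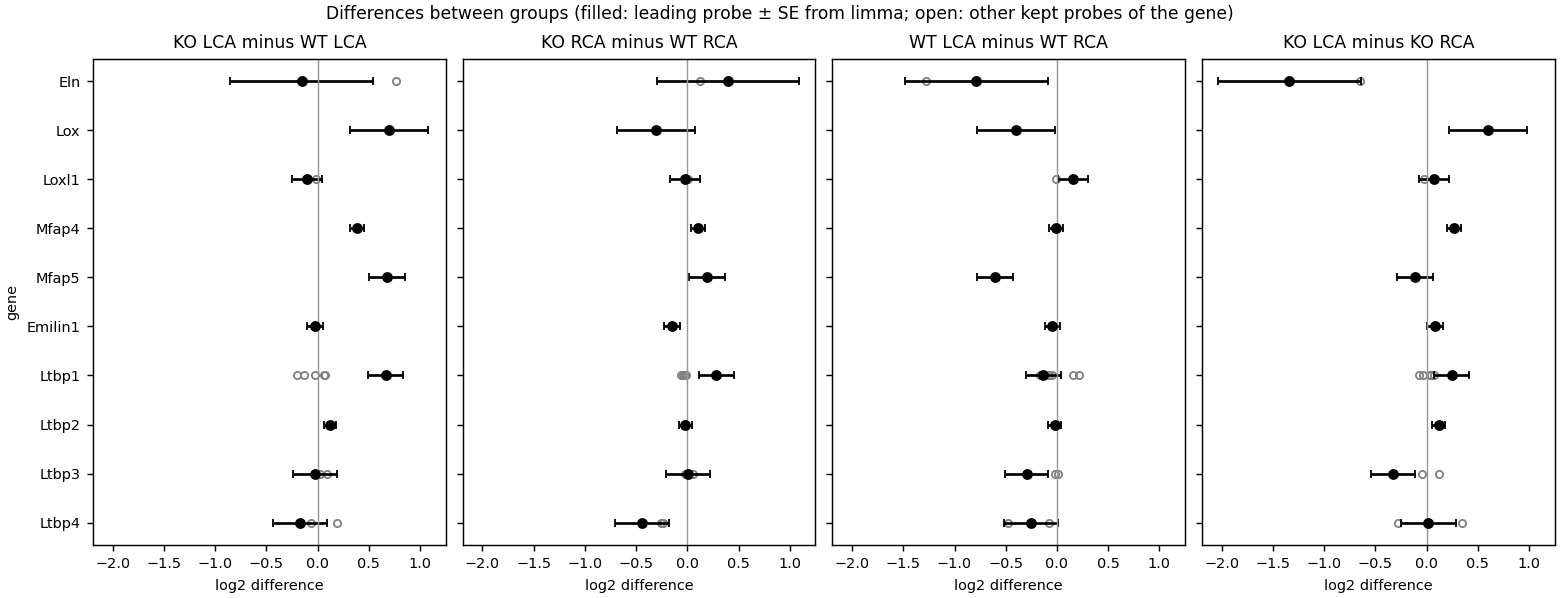
Log2 difference of each gene in the 4 pairwise comparisons, with filled points for the leading probe ± SE from limma and open points for the gene's other tested probes. Mfap4, Mfap5 and the leading Ltbp1 probe lie above 0 in KO LCA minus WT LCA, the other Ltbp1 probes lie near 0 there, and 9 of the 10 leading probes lie below 0 in WT LCA minus WT RCA.

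Between the untouched arteries, KO RCA minus WT RCA, 5 leading probes were higher and 5 lower, and the median of the 21 was -0.02 against 0.00 for all probes. None passed the adjusted test (0% of all probes) and none an unadjusted p under 0.05 (4.32% of all probes). One probe, the leading one of Ltbp1, was higher without overlap (6.25% of all probes) and 1, Emilin1, lower (5.34%).

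After ligation in the wild type, WT LCA minus WT RCA, 9 of the 10 leading probes were lower, and the median of the 21 was -0.07 against -0.00 for all probes. None passed the adjusted test (0% of all probes). At an unadjusted p under 0.05 there were 4, where 6.84% of all probes passed. The lower 3 were probes of Eln, Mfap5 and Ltbp1, and the higher 1 was another Ltbp1 probe. None was higher without overlap (4.4% of all probes), and 6 were lower, with probes of Eln, Lox, Mfap5, Ltbp1, Ltbp3 and Ltbp4, where 6.54% of all probes were. Without the third WT LCA array 6 of the 10 leading probes were lower and 4 higher. The lower 3 probes at an unadjusted p under 0.05 were then of Eln, Mfap5 and Ltbp1 and none was higher, where 5.92% of all probes passed, and the same 6 were lower without overlap (10.7% of all probes) and none higher (9.26%). After ligation in the knockout, KO LCA minus KO RCA, 7 leading probes were higher and 3 lower, with a median of 0.04 against -0.00. None passed the adjusted test (0% of all probes), and Mfap4 alone had an unadjusted p under 0.05 (7.54% of all probes). There 3 probes were higher without overlap, of Mfap4, Ltbp1 and Ltbp3 (8.9% of all probes), and 1 Ltbp1 probe was lower (11.2%).

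The interaction had a median of 0.11 over the 21 probes, against -0.00 over all, and 7 of the 10 leading probes were above 0. None passed the adjusted test (0% of all probes), and Mfap4 alone had an unadjusted p under 0.05 (3.62%). The largest leading-probe value was that of Lox, 1.00 ± 0.54 (adjusted p = 0.919), which moved between 0.52 and 1.41 with single arrays left out. With the third WT LCA array left out the median over the 21 probes was 0.06, against 0.00 over all. In that setting 7 of the 10 leading probes were again above 0, and Mfap4 alone had an unadjusted p under 0.05 (4.37% of all probes). The comparisons share arrays, so their values are not independent of one another.

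A pair of further contrasts, chosen after seeing the data, averaged over genotype or side. Left and right arteries were treated as independent there, though they may come from the same mice. The SE averaged over sides may then be too small. Averaged over genotypes, LCA minus RCA was -1.06 ± 0.49 for the leading Eln probe (unadjusted p = 0.0572, adjusted p = 0.475) and -0.97 for the second (unadjusted p = 0.0038, adjusted p = 0.413). It was -0.36 ± 0.12 for Mfap5 (adjusted p = 0.422). None of the 21 passed the adjusted test (0% of all probes), and 6 had an unadjusted p under 0.05, 4 lower (of Eln, Mfap5, Ltbp1 and Ltbp4) and 2 higher (of Mfap4 and Ltbp1), where 10.6% of all probes did. Averaged over sides, knockout minus wild type was 0.25 ± 0.05 for Mfap4 (adjusted p = 0.137), 0.47 ± 0.12 for the leading Ltbp1 probe (adjusted p = 0.297) and 0.44 ± 0.12 for Mfap5 (adjusted p = 0.384). None passed the adjusted test (0.124% of all probes), and these 3 had an unadjusted p under 0.05 (6.43%). When the third WT LCA array was left out, 4 probes had an unadjusted p under 0.05 averaged over genotypes (10% of all probes), 3 lower and 1 higher, and 5 averaged over sides (7.07%), 3 higher and 2 lower. The leading Eln probe averaged over genotypes was then -0.79 and the second -0.78.

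Across the 12 arrays, the leading probes of Mfap4 and Ltbp1 had a correlation of 0.86, those of Mfap4 and Ltbp2 0.77, of Emilin1 and Ltbp4 0.65, and of Eln and Ltbp3 0.61. The arrays of a group share their treatment, and all 12 have the same sorted values, so these values are descriptions. Among 14738 other genes, the patterns most like that of Ltbp4 over the 12 arrays were those of Fbln2 (r = 0.85), which encodes fibulin-2, Eva1b (0.83), Cst3 (0.82), Kif11 (0.81) and Spc24 (0.81). The patterns most like that of Lox were those of Ash2l (0.92), Espnl (0.91), Olfr541 (0.87), Slc39a1 (0.86) and Matn2 (0.86). Olfr541 is itself one of the receptor genes behind the background level, with intensities of 86.2 to 127.

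Partners of the elastic fibre were taken as 4 lists: other proteins of the scaffold (18 of 23 genes tested), genes of crosslinking and collagen handling (10 of 11), genes of TGF-beta storage and activation (12 of 13) and elastases with their inhibitors (12 of 15). In the 4 pairwise comparisons and the interaction, none of their genes passed the adjusted test. At an unadjusted p under 0.05 for KO LCA minus WT LCA, 2 scaffold, 2 crosslinking, 2 TGF-beta and 3 elastolysis genes were higher and none lower. Over 15395 genes, by leading probes, 5.03% were higher and 2.16% lower at that p. These counts include the third WT LCA array and were not redone without it. Over all 25796 probes, 1158 were higher and 508 lower with that array, against 836 higher and 934 lower without it. The lists had medians of -0.01, 0.02, 0.02 and -0.08, against -0.01 over all these genes.

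Tgfb2, a TGF-beta ligand, read 499, 484 and 387 in KO LCA, 141, 163 and 117 in WT LCA, 299, 390.4 and 409 in KO RCA, and 163, 265 and 129 in WT RCA. On both sides the knockout arrays all lay above the wild-type arrays. The log2 difference was 1.71 ± 0.25 on the ligated side (adjusted p = 0.0566) and 1.03 ± 0.25 on the untouched side (adjusted p = 0.839). Averaged over sides, Tgfb2 was higher in the knockout by 1.37 ± 0.18 and passed the test (limma adjusted p = 0.0213). That contrast was chosen after seeing the data, and the list with earlier results known, so the call is a description. Tgfb2 passed in 16 of 24 alternatives, over which the adjusted p was 0.00800 to 0.107. The call was lost with a trended robust prior (0.107), without both wild-type arrays numbered 3 (0.0632), and when any one of these arrays was left out: KO LCA number 1 or 2, WT LCA number 1, KO RCA number 2 or 3, or WT RCA number 1. Thbs1, thrombospondin-1, which can activate latent TGF-beta, read 514, 533 and 336 in KO LCA, 257, 268 and 97.5 in WT LCA, 250.4, 317 and 239 in KO RCA, and 125, 127 and 94.1 in WT RCA. Its knockout arrays lay above the wild-type arrays on both sides, by 1.26 ± 0.36 (adjusted p = 0.475) and 1.22 ± 0.36 (adjusted p = 1). The ligated-side difference of Thbs1 was 0.78 without the third WT LCA array.

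**Figure D4:**
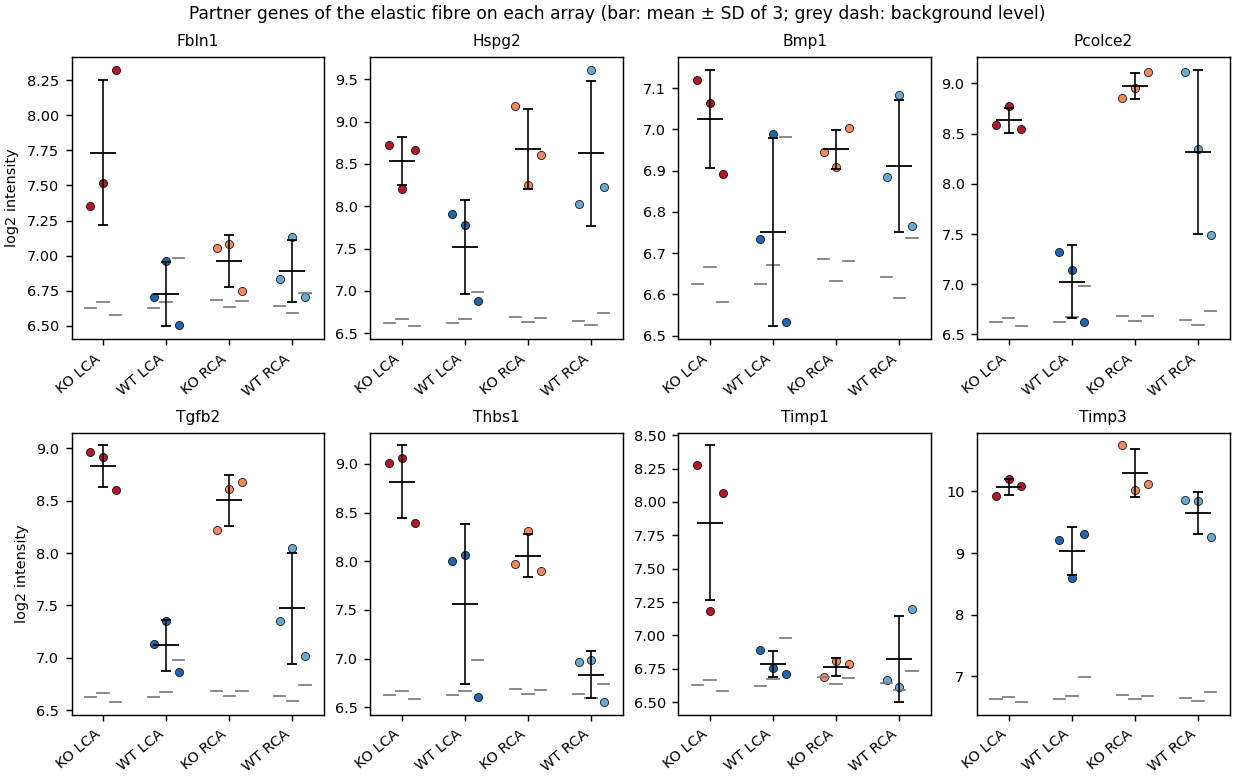
Log2 intensity of 8 partner genes on each array of KO LCA, WT LCA, KO RCA and WT RCA, with the mean ± SD of 3 arrays and grey dashes for each array's background level. The genes are the 2 with the smallest p for KO LCA minus WT LCA in each of the 4 lists, and all 8 have higher means in KO LCA than in WT LCA.

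Pcolce2, an enhancer of procollagen C-proteinase, read 384, 437 and 373 in KO LCA, 159, 141 and 98.3 in WT LCA, 463, 497 and 553 in KO RCA, and 556, 326 and 179 in WT RCA. The ligated-side difference was 1.61 ± 0.34 (adjusted p = 0.199), and WT LCA stood -1.29 ± 0.34 from WT RCA (adjusted p = 0.581). The other Pcolce2 probe gave 0.11 and -0.05 in these comparisons. Bmp1, the procollagen C-proteinase that also releases active Lox, gave a difference of 0.27 ± 0.12 on the ligated side (adjusted p = 0.762), or 0.17 without the third WT LCA array, and its other 3 probes gave -0.02 to 0.01. Tll1, a related proteinase, was above background on 1 KO LCA array and on no KO RCA array. Fmod, fibromodulin, which binds collagen and Lox, was above background on all 3 WT RCA arrays and on none of KO RCA or WT LCA. It was at least 1.10-fold higher in WT RCA than in KO RCA and at least 1.03-fold higher than in WT LCA. The measured Fmod differences were -0.24 ± 0.12 for KO RCA minus WT RCA and -0.29 ± 0.12 for WT LCA minus WT RCA, or -0.09 and -0.14 without the third WT RCA array.

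Fbln1, which encodes fibulin-1, read 164, 183 and 320.0 in KO LCA and 105, 125 and 91.0 in WT LCA, a log2 difference of 1.01 ± 0.24 (adjusted p = 0.301), while its other probes gave 0.07 and 0.25. For Hspg2, perlecan, the difference was 1.01 ± 0.43 on the ligated side (adjusted p = 0.752) and -1.10 ± 0.43 for WT LCA minus WT RCA, the second -0.61 without the second WT RCA array. The other Hspg2 probe gave 0.85 and -0.53. Efemp1, fibulin-3, read 166, 162 and 145 in KO RCA and 741, 275 and 266 in WT RCA, a log2 difference of -1.27 ± 0.37 (adjusted p = 1), and WT LCA stood -0.86 ± 0.37 from WT RCA. Without the first WT RCA array these Efemp1 differences were -0.78 and -0.38. Mmrn2, a multimerin of the Emilin family, stood -0.77 ± 0.36 in KO LCA against KO RCA, or -0.48 without the first KO RCA array. Adamts10, a proteinase that binds fibrillin microfibrils, gave 0.23 ± 0.16 for KO RCA minus WT RCA, or 0.015 without the first KO RCA array, and its other 4 probes gave -0.15 to -0.01.

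Among inhibitors of matrix metalloproteinases, Timp1 read 311, 145 and 268 in KO LCA, 119, 108 and 105 in WT LCA, 103, 112 and 110.4 in KO RCA, and 101, 98.0 and 147 in WT RCA. Its KO LCA arrays lay above those of WT LCA, by 1.06 ± 0.25 (adjusted p = 0.304), and above those of KO RCA, by 1.08 ± 0.25 (adjusted p = 0.627), and its other probe gave 1.14 and 1.26. Timp3 differed by 1.04 ± 0.25 on the ligated side (adjusted p = 0.304), and its other probes gave 1.45 and 1.49. On the untouched side the Timp3 difference was 0.64 ± 0.25 (0.42 without the first KO RCA array, and 0.38 and 0.56 by its other probes). WT LCA stood -0.62 ± 0.25 from WT RCA for Timp3 (-0.40 without the second WT LCA array, and -1.30 and -0.74 by its other probes). Timp2 gave -1.03 ± 0.52 for KO RCA minus WT RCA, or -0.42 without the second WT RCA array. Mmp2, a gelatinase that can degrade elastin, stood -0.51 ± 0.23 in WT LCA against WT RCA, or -0.30 without the third WT RCA array. Mmp3, stromelysin-1, was above background on 2 KO LCA arrays and on no KO RCA array. Its measured difference was 0.43 ± 0.12, while its other probes gave 0.02 and 0.10. Itgb6, an integrin subunit that helps to activate latent TGF-beta, was above background on 1 array each of WT LCA and WT RCA. Its difference there was 0.37 ± 0.19, or 0.079 without the third WT LCA array, and its other probes gave -0.02 and 0.07. Itgb8, another such subunit, was above background on 1 KO LCA array and on no KO RCA array.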

How the data were processed

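The values are linear probe intensity values that the authors deposited for 12 one-colour arrays hybridised with biotinylated cRNA, per the labels' protocols. The sorted values of the arrays agreed within 1.00, as after a quantile normalization. How the scanner output was background-corrected and normalized is not given in the sources used here. Of the deposited intensities the lowest was 72.4, the median 93.6 and the highest 10230, so fold changes near that floor are compressed, and the number of arrays limits how precise any value is. Gene names came from the platform annotation (34885 with 1 symbol, 18 with several and 10378 with none). A probe with 1 symbol was kept if at least 3 arrays had it at or over their own median, which 25796 probes of 15395 genes met. With limma 3.58.1 in R 4.3.3, the 4 group means were fitted to log2 intensities (floor of 1) over the 12 arrays, with two-sided moderated tests and Benjamini-Hochberg adjustment over all kept probes at 0.05. The fit was tested on simulated data. Named partners were the 2 genes of each list with the smallest p in each pairwise comparison. Likeness was computed for up to 3 members above background on all arrays, by Pearson correlation of log2 values. The members, lists, motifs and tests were chosen with earlier results of these data known.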

Additional observations from a re-analysis of the deposited data

How the results depend on the processing

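No probe of the 10 genes passed the threshold in any of the 7 comparisons under any of 25 settings, and the lowest adjusted p of any member probe was 0.0875. Of 1713 alternative values of the leading probes, 1 changed sign where the main difference exceeded its SE: Loxl1 for WT LCA minus WT RCA, 0.16, was -0.051 without the first WT LCA array and up to 0.29 with other arrays left out. Another 56 values changed sign among the 30 of 70 leading-probe results whose main difference was within its SE. Counts over all probes moved more. For KO LCA minus WT LCA, 11 probes passed, against 0 with the replicate block, with a trended robust prior or with the 2 groups alone, 1 with one probe per gene, 4 with array weights, 21 with median centring and 22 with a stricter filter, and 0 to 25 with single arrays left out. For KO RCA minus WT RCA none passed (1115 at an unadjusted p under 0.05), against 7 without both wild-type arrays numbered 3, and 0 to 5 with single arrays left out. For WT LCA minus WT RCA none passed (1764 unadjusted), against 1 with array weights and 11 without both wild-type arrays numbered 3, and 0 to 10 with single arrays left out. Single arrays left out gave 0 to 5 for KO LCA minus KO RCA (none with all arrays, 1946 unadjusted) and 0 to 3 for the interaction (none, 934 unadjusted). For genotype averaged over sides 32 passed, against 1 with a trended robust prior, 11 without both wild-type arrays numbered 3, 18 with one probe per gene, 19 with the replicate block, 48 with array weights and 5 to 45 with single arrays left out. For ligation averaged over genotypes none passed (2742 unadjusted), against 4 without both wild-type arrays numbered 3 and 0 to 3 with single arrays left out. Whether arteries with the same number pair was not settled. Their deviations correlated at -0.015 to 0.040 in the knockout and 0.041 to 0.081 in the wild type. Differently numbered arteries gave -0.056 to 0.060 in the knockout and -0.054 to 0.009 in the wild type. Every same-numbered value was thus the higher in the wild type, while in the knockout the ranges overlapped. With the replicate block no member probe passed. For the genotype comparisons this block joined knockout and wild-type arrays of the same number, so it is no pairing by mouse. For ligation and the interaction it joined same-numbered arteries of a genotype. The causes were not tested. The many probes near background limit what these arrays can show.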
